A study of Homo sapiens with 4 samples.

Results

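Translation initiation factors (eIFs) bring a ribosome and the initiator tRNA to the start codon of an mRNA, and elongation factors (eEFs) then deliver aminoacyl-tRNAs and move the ribosome along the coding sequence. The genes described here are the protein-coding genes whose symbol starts with EIF1, EIF2, EIF3, EIF4, EIF5, EIF6, EEF1 or EEF2. Of 234 genes with such a symbol in the deposited table, 156 pseudogenes, 7 long non-coding RNA genes and 2 readthrough genes were left out. This left 69 factor genes of the 62443 genes listed. The symbol rule also takes in the eIF2 kinases, the eIF4E-binding proteins and the enzymes that methylate elongation factors.

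RNA was sequenced from HGC-27 cells, an established human line that the labels call gastric cancer cells. In the GLUP group, 2 libraries came from cells given the GLUP peptide at 10 μg/ml, and in the Con group 2 libraries came from cells whose treatment is labelled none and which received only the peptide's buffer by the study's methods. GLUP is a cyclized peptide designed as a molecular glue on TEAD4, a transcription factor of the Hippo pathway that works with the coactivator YAP. The treatment time is given both as 12 h and as 48 h in the sources used here, so the duration behind these values is uncertain. All 4 libraries come from 1 cell line, and the methods call replicates biological without tying these libraries to separate cultures, so a p-value measures only the spread between these 4 libraries.

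Levels are in FPKM, fragments scaled to transcript length and to the library's total, which allows levels of different genes to be compared per length. Differences are log2 fold changes of FPKM + 1, GLUP minus Con, so the changes of low genes are understated. Of the 69 factor genes, 58 averaged 1 FPKM or more across all libraries and entered the test, which limma fitted to all 7588 genes that passed this filter. In bulk RNA, fewer cells of a type and less of an mRNA per cell cannot be told apart, and neither can a change of an mRNA and a change of the total that it is scaled to.

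The Con libraries stood further from each other than the GLUP libraries did. Across the genes tested, log2 values of Con replicates 1 and 2 had a Pearson r of 0.933 and those of the GLUP replicates 0.986. With GLUP replicates 1 and 2, Con replicate 1 had 0.952 and 0.957, and Con replicate 2 had 0.873 and 0.886. By this measure Con replicate 1 was closer to both GLUP libraries than to Con replicate 2. Among the 58 factor genes, 11 differed by more than 2-fold between the Con replicates and 1 (EIF4E) between the GLUP replicates, which is 19.0% and 1.72%, beside 19.1% and 1.63% of all genes tested. The median of all genes tested was itself lower in GLUP, at -0.36 on the log2 scale, and factor genes are therefore also given relative to it. The defining markers of the labelled tissue were low or absent. Of 6 stomach lineage genes, 5 were listed at 0 in every library and MUC5AC reached 0.0128 FPKM in 1 of them. EPCAM and CDH1, which mark epithelial cells, did not exceed 0.124 FPKM, and the epithelial list (3 of 5 genes averaging 1 FPKM or more) summed to 2.97 and 3.70 FPKM in Con and to 5.87 and 5.18 FPKM in GLUP. In the mesenchymal list, 2 of 3 genes averaged 1 FPKM or more, with VIM between 293 and 387 FPKM, FN1 between 0.655 and 3.25 FPKM and CDH2 at or below 0.0508 FPKM, and the fibroblast list (3 of 4 genes averaging 1 FPKM or more, LUM and DCN among them) summed to 97.5 to 105 FPKM. No gene of 4 immune or 2 matched endothelial markers had a mean of 1 FPKM, whereas the erythroid gene HBA1 lay between 3.04 and 17.5 FPKM with HBB at 0. The part of these differences in the factor genes' values was not tested.

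The translation factor mRNAs did not move as 1 group. Their median log2 fold change was -0.37, beside -0.36 for all genes tested, a difference of -0.012. Of the 58, 21 had a log2 fold change above 0, where 33.3% of all genes tested did, and 37 one below 0, where 66.7% did. No factor gene passed an adjusted p of 0.05 in limma, where 0.0264% of all genes tested did, and the lowest adjusted p among them was 0.10. At an unadjusted p under 0.05, 23 of the 58 were past the threshold, 5 higher and 18 lower in GLUP, while 6.37% of all genes were higher and 25.4% lower. Leaving out Con replicate 1 gave 42 factor genes with an adjusted p under 0.05 in limma (background 53.2% of all genes) and leaving out Con replicate 2 gave 12 (background 18.7%), with the remaining Con library then assumed to vary as the GLUP pair does. With 2 libraries against 2, the smallest p of a two-sided exact permutation test is 0.333, so no single gene can be called by that test.

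The order of the libraries gives a description that needs no variance estimate. Both GLUP libraries lay above both Con libraries for 12 of the 58 genes (20.7%, against 17.5% of all genes tested) and below both for 31 (53.4%, against 49.7%), and the groups overlapped for the remaining 15. With a difference of over 2-fold as well, 6 genes stood higher, which is 10.3% against a background of 6.47%. These were EEF1AKMT4, EEF1D, EEF1G, EIF3G, EIF4A1 and EIF5A. Another 13 stood lower, which is 22.4% against a background of 15.9%. These were EEF1AKMT1, EEF1AKMT2, EEF1E1, EIF2A, EIF2B3, EIF2S2, EIF2S3, EIF3H, EIF3J, EIF4A3, EIF4E, EIF5 and EIF5B. Both shares were near their background. With each library centred on its own median, 8 stood higher (background 11.9%) and 5 lower (background 6.52%). At any size of difference, that centring left 19 factor genes above without overlap (background 32.7%) and 22 below (background 29.8%).

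**Figure D1:**
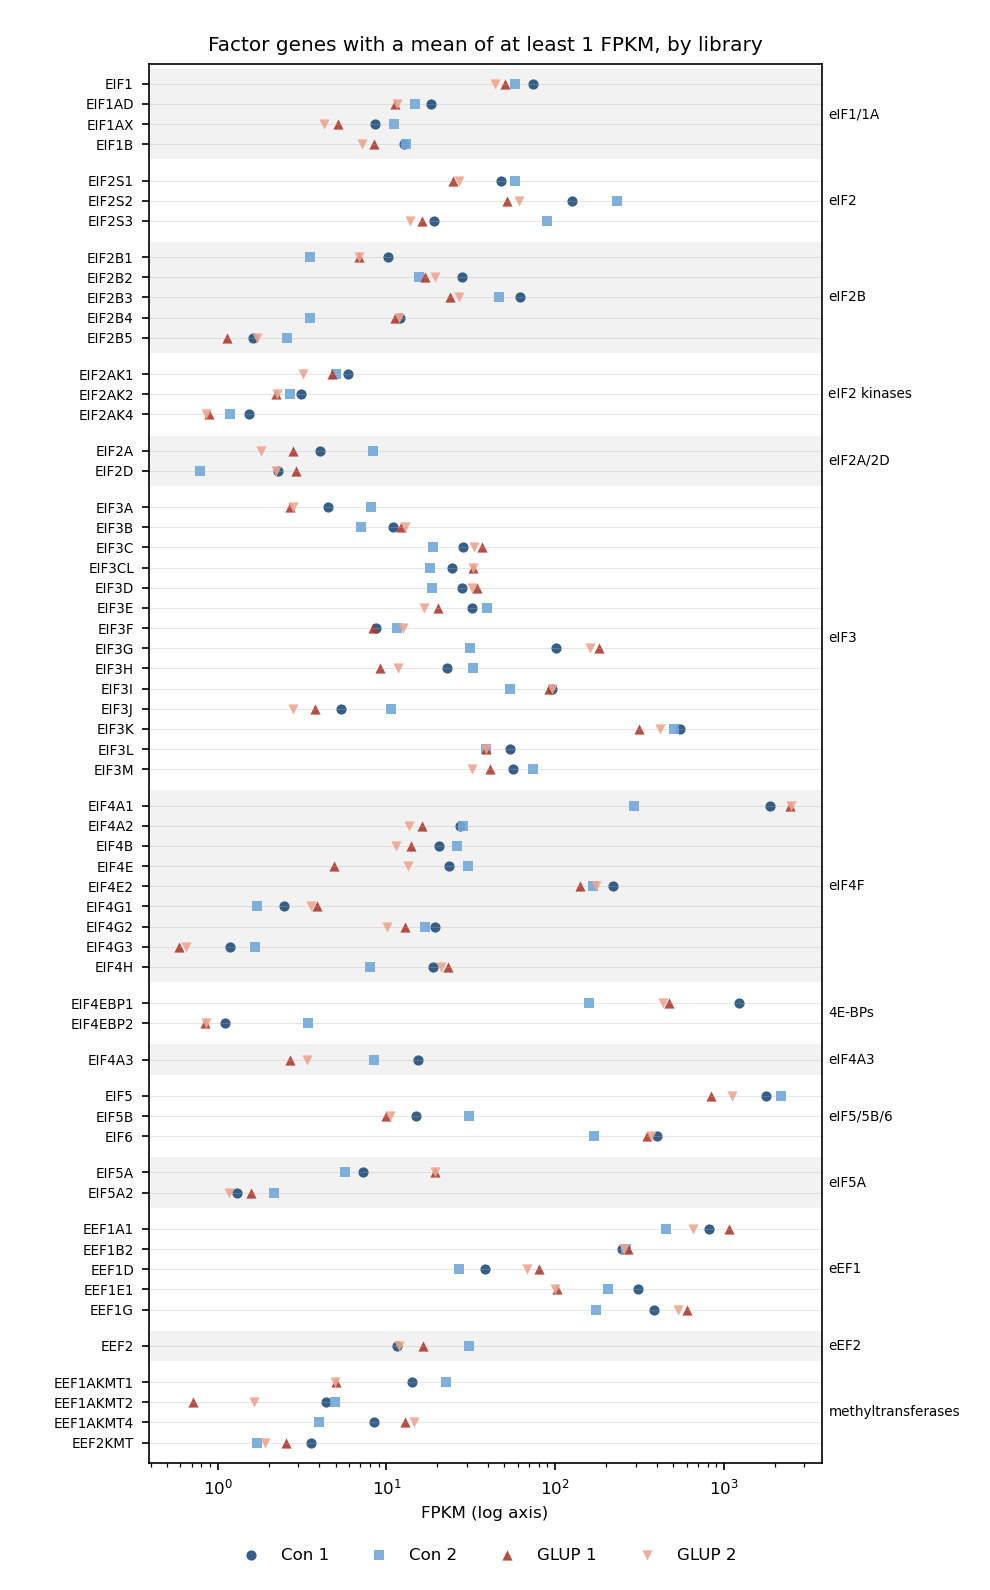
FPKM of the 58 factor genes that averaged 1 FPKM or more, on a log axis, with 1 row per gene and 1 marker per library (Con 1 and Con 2 in blue, GLUP 1 and GLUP 2 in red), grouped by factor complex. The GLUP markers lie close together for most genes, while the Con markers spread widely for EIF4A1, EIF4EBP1, EIF2S3 and EIF3G.

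Only a few factor mRNAs dominated the pool. EIF4A1, EIF5 and EIF4EBP1 led in Con replicate 1, EIF5, EIF3K and EEF1A1 in Con replicate 2, and EIF4A1, EIF5 and EEF1A1 in both GLUP libraries. In each library the leading 3 genes held between 54.4% and 57.6% of the summed FPKM of all 69. The factor genes made up 0.983% and 0.625% of all FPKM in the Con libraries and 0.815% and 0.790% in the GLUP libraries. The GLUP shares lay between the Con shares, also without EIF4A1 and EIF5 (0.582% and 0.356% in Con, 0.461% and 0.409% in GLUP).

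Among the 19 genes that passed 2-fold without overlap, 4 did so in the settings used here and under each of the 14 alternatives tried. EIF5A, the factor that carries the modified lysine hypusine and helps the ribosome through difficult peptide bonds, measured 7.29 and 5.66 FPKM in Con and 19.5 and 19.3 FPKM in GLUP. The GLUP libraries were nearly equal and both higher, with a log2 fold change of 1.46 (SE 0.31, adjusted p = 0.10 in limma) and a range of 1.09 to 1.83 over the alternatives. GPS2, which overlaps EIF5A on the opposite strand, measured 47.2 and 22.0 FPKM in Con and 28.8 and 30.6 FPKM in GLUP, and its groups overlapped. Whether the counting used strand is not given in the sources used here.

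The other 3 stood lower. EIF4A3, the helicase that anchors the exon junction complex to spliced mRNA and despite its name is not part of the cap-binding complex, measured 15.4 and 8.40 FPKM in Con and 2.69 and 3.40 FPKM in GLUP. Its log2 fold change was -1.62 (SE 0.37, adjusted p = 0.10 in limma), between -2.02 and -1.19 over the alternatives. EEF1AKMT1, a methyltransferase of eEF1A, measured 14.1 and 22.4 FPKM in Con and 5.03 and 4.94 FPKM in GLUP. It had the lowest log2 fold change of all 58 factor genes, -1.65 (SE 0.34, adjusted p = 0.10 in limma). EIF2S2, the beta subunit of eIF2, measured 125 and 234 FPKM in Con and 51.9 and 61.2 FPKM in GLUP, a log2 fold change of -1.59 (SE 0.41, adjusted p = 0.101 in limma). For these 3 genes every Con library exceeded every GLUP library by more than 2-fold in FPKM. The 7 pseudogenes named after EIF2S2 summed to 15.5% of its mean level (23.1 and 30.7 FPKM in Con, 8.77 and 10.5 FPKM in GLUP).

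The trimeric factor eIF2 carries the initiator tRNA to the small ribosomal subunit, and its phosphorylation by stress kinases is a main brake on initiation. All 3 of its standard subunits had both GLUP libraries below both Con libraries, as 49.7% of all genes did, with a median log2 fold change of -1.42, which was -2.03 without Con replicate 1 and -0.87 without Con replicate 2. The summed FPKM of its genes was 192 and 381 in Con and 93.4 and 102 in GLUP. EIF2S1, the alpha subunit that the kinases phosphorylate, measured 47.9 and 57.4 FPKM in Con and 24.9 and 26.8 FPKM in GLUP, a log2 fold change of -0.99 (SE 0.32, adjusted p = 0.118 in limma). EIF2S3, the gamma subunit that binds GTP, measured 19.0 and 89.8 FPKM in Con and 16.3 and 13.7 FPKM in GLUP. Its Con libraries spanned more than the difference between groups, and its log2 fold change of -1.42 (SE 0.71, adjusted p = 0.219 in limma) was -0.33 without Con replicate 2. After a correction for GC content, described with the transcripts' GC content, the eIF2 median was -0.74, where the correction brings the median of all genes close to 0. EIF2S3B, a retrogene copy of EIF2S3, was under the filter.

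The exchange factor eIF2B, which recharges eIF2 with GTP, held genes on both sides of 0. Its 5 subunits had a median log2 fold change of -0.20, beside -0.36 for all genes, but 0.20 without Con replicate 1 and -0.50 without Con replicate 2, so its place relative to all genes depends on the Con library, and the groups overlapped for all but EIF2B3. EIF2B1 lay between 3.51 and 10.2 FPKM, EIF2B2 between 15.6 and 27.9 FPKM and EIF2B5, the catalytic subunit, between 1.14 and 2.58 FPKM. EIF2B3, the gamma subunit of the catalytic part, measured 62.0 and 46.4 FPKM in Con and 23.9 and 26.9 FPKM in GLUP, a log2 fold change of -1.05 (SE 0.34, adjusted p = 0.116 in limma). EIF2B4, the delta subunit, measured 12 and 3.51 FPKM in Con and 11.3 and 11.8 FPKM in GLUP. Only Con replicate 2 stood apart there, and the log2 fold change of 0.72 (SE 0.53, adjusted p = 0.364 in limma) became -0.04 without it.

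The kinases that phosphorylate eIF2 alpha were expressed at low levels. EIF2AK1, which responds to heme shortage, lay between 3.22 and 5.89 FPKM, EIF2AK2 (PKR), which senses double-stranded RNA, between 2.23 and 3.13 FPKM, and EIF2AK4 (GCN2), which senses uncharged tRNA, between 0.850 and 1.54 FPKM. Both GLUP libraries were below both Con libraries for all 3 (background 49.7%). Their log2 fold changes, from -0.39 for EIF2AK1 (SE 0.31, adjusted p = 0.392 in limma) to -0.27 for EIF2AK2 (SE 0.25, adjusted p = 0.469 in limma), were close to the median of all genes. Centring each library moved EIF2AK2 to 0.073. EIF2AK3 (PERK), the kinase of the endoplasmic reticulum, was under the filter at 0.188 and 0.143 FPKM in Con and 0.0427 and 0.0850 FPKM in GLUP. ATF4, whose translation increases when eIF2 is phosphorylated, measured 49.8 and 39.7 FPKM in Con and 44.2 and 38.9 FPKM in GLUP, so its mRNA level overlapped between the groups. mRNA levels do not measure the phosphorylation of eIF2.

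A pair of factors can place tRNA on the ribosome without eIF2. EIF2A measured 4.03 and 8.34 FPKM in Con and 2.78 and 1.80 FPKM in GLUP, a log2 fold change of -1.08 (SE 0.39, adjusted p = 0.136 in limma). EIF2D measured 2.26 and 0.781 FPKM in Con and 2.91 and 2.21 FPKM in GLUP, a log2 fold change of 0.55 (SE 0.36, adjusted p = 0.310 in limma). The groups overlapped for EIF2D but not for EIF2A. Without Con replicate 2 the values were -0.63 for EIF2A and 0.12 for EIF2D, and the GC correction gave -0.32 and 1.09.

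Start codon selection depends on eIF1 and eIF1A, small proteins that hold the scanning ribosome open. Of the genes named after them, 4 were tested and all 4 had both GLUP libraries below both Con libraries (background 49.7%), with a median log2 fold change of -0.58. EIF1 measured 74.4 and 57.4 FPKM in Con and 50.3 and 43.9 FPKM in GLUP, a log2 fold change of -0.47 (SE 0.34, adjusted p = 0.350 in limma). EIF1AX measured 8.59 and 11.1 FPKM in Con and 5.15 and 4.28 FPKM in GLUP, a log2 fold change of -0.92 (SE 0.31, adjusted p = 0.121 in limma). Pseudogenes named after EIF1AX summed to 95.0% of its own mean, so how its reads were divided among copies is uncertain. EIF1AD and EIF1B had values between these (-0.50 and -0.67). After the GC correction the median of these 4 genes was -0.07.

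**Figure D2:**
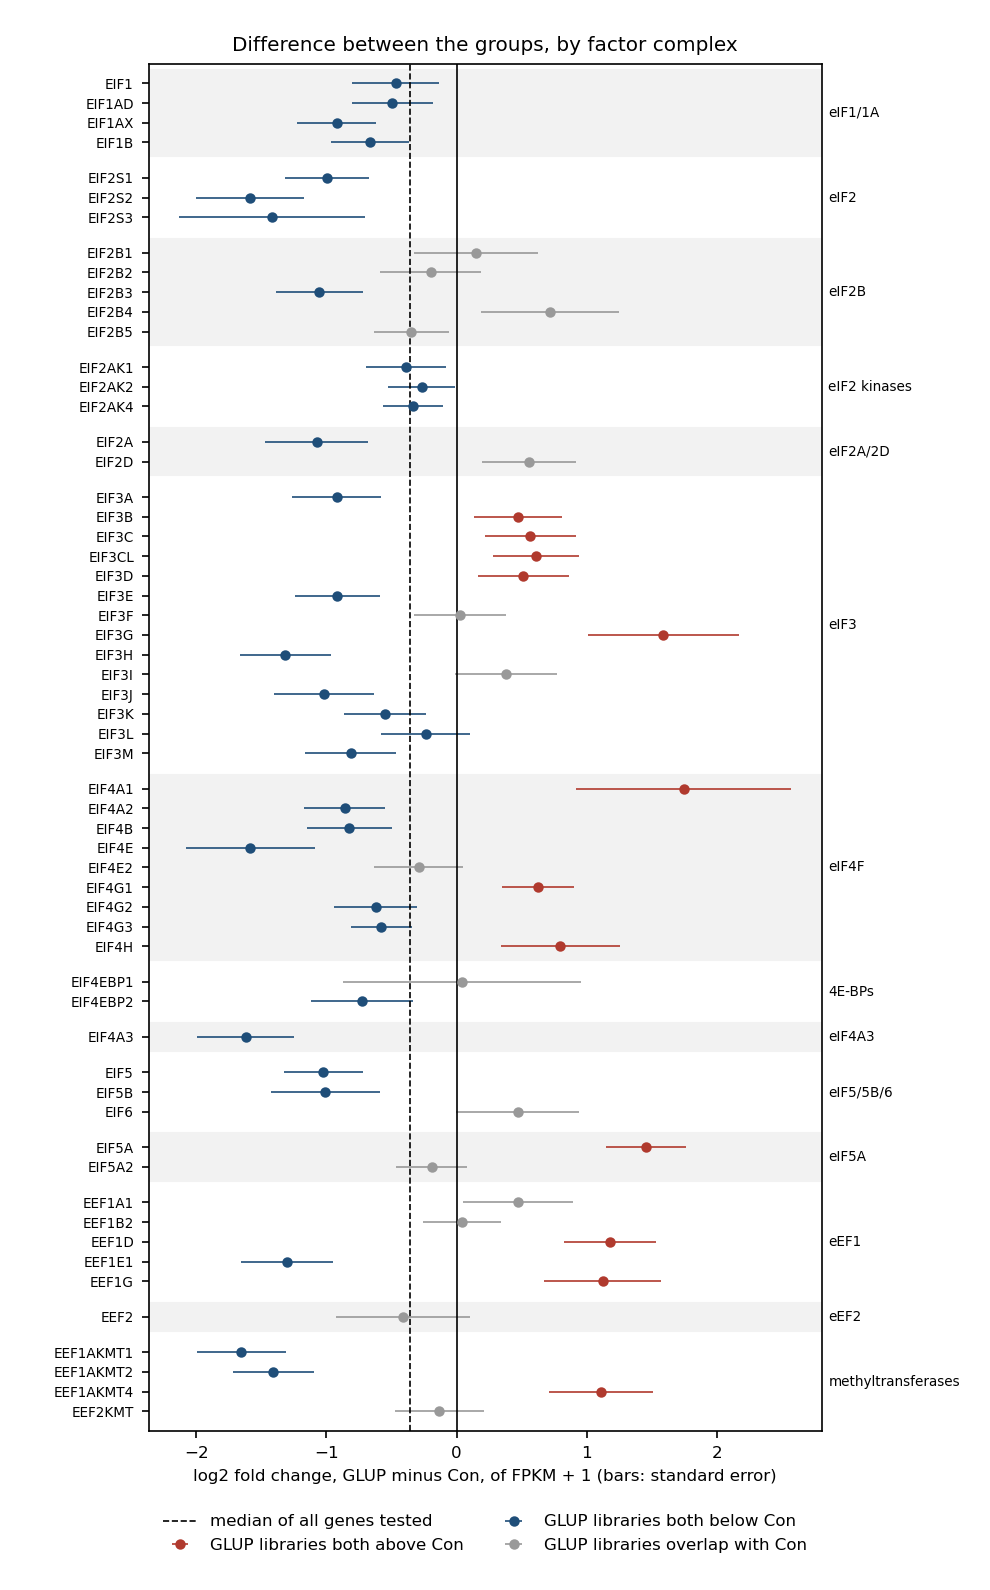
Log2 fold change of FPKM + 1, GLUP minus Con, of the 58 factor genes tested (points) with the standard error from limma (bars), grouped by factor complex, with the median of all genes tested as a dashed line at -0.36. Red points mark 12 genes with both GLUP libraries above both Con libraries, blue points 31 with both below and grey points 15 that overlap; the eIF2 subunits are all blue, while eIF3, eIF4F and eEF1 hold both colours.

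The largest initiation factor, eIF3, is a scaffold on the small ribosomal subunit that links it to the mRNA-bound eIF4 factors. Its genes split. Of 14, all tested, 5 had both GLUP libraries above both Con libraries (EIF3B, EIF3C, EIF3CL, EIF3D and EIF3G), 7 had both below (EIF3A, EIF3E, EIF3H, EIF3J, EIF3K, EIF3L and EIF3M) and 2 overlapped (EIF3F and EIF3I). Of all genes tested, 17.5% lay above without overlap and 49.7% below. The median log2 fold change of the eIF3 genes was -0.11. With median centring the split was 6 above (background 32.7%) and 5 below (background 29.8%). With the GC correction it was 7 above (background 28.3%) and 3 below (background 27.9%).

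EIF3G, an RNA-binding subunit, stood at the upper end with 100.5 and 31.1 FPKM in Con and 181 and 161 FPKM in GLUP. Its log2 fold change was 1.59 (SE 0.58, adjusted p = 0.136 in limma), but 0.76 without Con replicate 2 and 2.42 without Con replicate 1. EIF3H, a subunit of the octameric core, stood at the lower end with 22.7 and 32.7 FPKM in Con and 9.14 and 11.7 FPKM in GLUP, a log2 fold change of -1.32 (SE 0.35, adjusted p = 0.101 in limma) that was -0.61 after the GC correction. The ratio of EIF3G to EIF3H within a library, a pair picked after their values were seen, was 4.42 and 0.951 in Con and 19.8 and 13.7 in GLUP. EIF3K, the most abundant eIF3 mRNA, measured 548 and 507 FPKM in Con and 312 and 415 FPKM in GLUP, a log2 fold change of -0.55 (SE 0.32, adjusted p = 0.262 in limma).

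EIF3A and EIF3B, the largest scaffold subunits, stood on opposite sides. EIF3A measured 4.48 and 8.08 FPKM in Con and 2.67 and 2.78 FPKM in GLUP, and EIF3B 10.9 and 7.05 FPKM in Con and 12.3 and 12.9 FPKM in GLUP. Their log2 fold changes were -0.92 and 0.47. The near-identical genes EIF3C and EIF3CL had FPKM values within a ratio of 1.00 to 1.16 of each other in every library, and reads from one cannot be assigned with certainty apart from the other. EIF3D, which can itself bind a cap, measured 28.2 and 18.7 FPKM in Con and 34.4 and 32.1 FPKM in GLUP (0.51). EIF3E and EIF3M, both of the core, were lower with log2 fold changes of -0.92 and -0.81, and EIF3J, a loosely bound subunit, with -1.02. EIF3F, EIF3I and EIF3L had values closer to 0 (0.03, 0.38 and -0.24). Pseudogenes named after EIF3F summed to 49.4% of its mean level, so how its reads were divided among copies is uncertain. Split by position after the values were seen, the 9 genes of the PCI/MPN core had a median of -0.55 and the other 5 a median of 0.47. After the GC correction the core genes EIF3A, EIF3E, EIF3H, EIF3K, EIF3L and EIF3M had -0.33, -0.17, -0.61, -0.60, -0.052 and -0.036. In the same core EIF3C, EIF3CL and EIF3F had 0.87, 0.44 and 0.69. The other 5, EIF3B, EIF3D, EIF3G, EIF3I and EIF3J, had 0.19, 0.61, 1.10, 0.57 and -0.23. EIF3C and EIF3CL both count in the core.

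The cap-binding complex eIF4F joins the cap-binding protein eIF4E, the scaffold eIF4G and the helicase eIF4A, aided by eIF4B and eIF4H. EIF4A1, the main eIF4A helicase and the factor mRNA with the highest mean over the 4 libraries though not in Con replicate 2, measured 1870.1 and 295 FPKM in Con and 2479 and 2499.9 FPKM in GLUP. The GLUP libraries were alike and above both Con libraries, and the log2 fold change was 1.74 (SE 0.83, adjusted p = 0.199 in limma), the highest of the 58. It was 0.41 without Con replicate 2 and 3.07 without Con replicate 1, so that replicate sets its size. The readthrough transcript SENP3-EIF4A1, which shares its exons, was listed at 0 in both Con libraries and at 7.77 and 35.2 FPKM in GLUP.

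EIF4E measured 23.6 and 30.3 FPKM in Con and 4.90 and 13.5 FPKM in GLUP. Both GLUP libraries were lower, yet they differed from each other by more than 2-fold, and the log2 fold change was -1.58 (SE 0.50, adjusted p = 0.114 in limma) and -0.71 after the GC correction. Pseudogenes named after EIF4E summed to 74.0% of its mean level (19.7 and 19.7 FPKM in Con, 7.27 and 6.83 FPKM in GLUP), so their reads may be divided between copies. EIF4A2 measured 27.4 and 28.2 FPKM in Con and 16.3 and 13.5 FPKM in GLUP, lower in both GLUP libraries (-0.86, and -0.11 after the GC correction). EIF4E2, a related cap-binding protein that does not bind eIF4G in the usual way, overlapped between groups at 141 to 221 FPKM.

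EIF4G1, the main scaffold, measured 2.46 and 1.71 FPKM in Con and 3.89 and 3.56 FPKM in GLUP, a log2 fold change of 0.62 (SE 0.28, adjusted p = 0.180 in limma). Its relatives EIF4G2, which lacks the eIF4E-binding part and serves cap-independent initiation, and EIF4G3 were lower, with log2 fold changes of -0.62 and -0.58. Of the helicase's helpers, EIF4B was lower (-0.82) and EIF4H higher (0.80), the latter from 19.0 and 7.95 FPKM in Con and 23.2 and 21.2 FPKM in GLUP. Over the 9 eIF4F genes tested, 3 were above without overlap (background 17.5%), 5 below (background 49.7%) and 1 overlapped. Their median of -0.58 became 0.072 with the GC correction.

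The eIF4E-binding proteins hold eIF4E away from eIF4G until mTORC1 phosphorylates them. EIF4EBP1 measured 1223 and 158 FPKM in Con and 472 and 434 FPKM in GLUP. The GLUP values lay between Con values that were far apart, and the log2 fold change of 0.04 (SE 0.91, adjusted p = 0.979 in limma) was 1.51 without Con replicate 1 and -1.43 without Con replicate 2, so no direction can be given. EIF4EBP2 measured 1.10 and 3.45 FPKM in Con and 0.844 and 0.848 FPKM in GLUP, a log2 fold change of -0.73 (SE 0.39, adjusted p = 0.242 in limma) that was -1.27 without Con replicate 1 and -0.18 without Con replicate 2. EIF4EBP3 and EIF4ENIF1, which carries eIF4E into the nucleus, were under the filter.

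Ratios between related genes within a library are free of that library's scaling. The ratio of EIF4A1 to EIF4A2, helicases that can replace each other in eIF4F, was 68.3 and 10.4 in Con and 152 and 185 in GLUP. That of EIF4G1 to EIF4G2 was 0.127 and 0.10 in Con and 0.301 and 0.351 in GLUP, and that of EIF4G1 to EIF4G3 was 2.07 and 1.02 in Con and 6.58 and 5.50 in GLUP. The EIF4E to EIF4E2 ratio was 0.107 and 0.182 in Con and lower in GLUP at 0.0347 and 0.0776. Of 12 ratios computed, 1 could not be formed in Con because EEF1A2 was listed at 0, 7 separated the groups and 4 overlapped. No share was computed for ratios of other genes. Among single genes tested, 17.5% had both GLUP libraries above both Con libraries and 49.7% both below, so separation is common in these data. Ratios do not show which of the partners moved, and they retain any difference in GC content between them.

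The last steps of initiation use eIF5, which triggers GTP hydrolysis by eIF2, eIF5B, which joins the large subunit, and eIF6, which keeps free large subunits apart. EIF5 measured 1774 and 2182 FPKM in Con and 835 and 1120.2 FPKM in GLUP, a log2 fold change of -1.02 (SE 0.30, adjusted p = 0.110 in limma), with -0.33 after the GC correction. EIF5B measured 15 and 30.8 FPKM in Con and 9.97 and 10.5 FPKM in GLUP, also lower in both GLUP libraries (-1.01). Its log2 fold change was -0.25 after the GC correction and -0.51 without Con replicate 2. EIF6 measured 403 and 169 FPKM in Con and 352 and 372 FPKM in GLUP. Its GLUP values lay between the Con values, and its log2 fold change of 0.47 (SE 0.47, adjusted p = 0.498 in limma) became -0.16 without Con replicate 2 and -0.02 with the GC correction.

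EIF5A2, the second eIF5A gene, did not follow EIF5A. It lay between 1.16 and 2.15 FPKM with a log2 fold change of -0.19 (SE 0.28, adjusted p = 0.635 in limma), and the ratio of EIF5A to EIF5A2 was 5.59 and 2.64 in Con and 12.4 and 16.6 in GLUP. The sign of EIF5A2 alone changed to 0.15 with median centring. DHPS, which starts hypusine synthesis on eIF5A, overlapped between groups at 4.45 to 10.2 FPKM.

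In elongation, eEF1A delivers aminoacyl-tRNA, and the eEF1B complex of EEF1B2, EEF1D and EEF1G exchanges its GDP for GTP. EEF1A1, the main eEF1A gene, measured 810.1 and 455 FPKM in Con and 1077 and 658 FPKM in GLUP. The groups overlapped, with a log2 fold change of 0.47 (SE 0.43, adjusted p = 0.449 in limma), which was 0.06 without Con replicate 2. After the GC correction it was 1.03, with both GLUP libraries above both Con libraries (background 28.3%). The 49 pseudogenes named after it summed to 11.3% of its mean level. EEF1A2, the form of muscle and neurons, was at or below 0.543 FPKM.

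The eEF1B subunits differed among themselves. EEF1D, an exchange subunit, measured 38.2 and 26.9 FPKM in Con and 79.8 and 68.2 FPKM in GLUP, a log2 fold change of 1.18 (SE 0.35, adjusted p = 0.110 in limma) and 0.68 after the GC correction. EEF1G, the structural subunit, measured 386 and 174 FPKM in Con and 602 and 531 FPKM in GLUP, a log2 fold change of 1.12 (SE 0.45, adjusted p = 0.156 in limma), with 0.55 without Con replicate 2. EEF1B2, the other exchange subunit, lay between 250 and 272 FPKM in all 4 libraries, with a log2 fold change of 0.04 (SE 0.30, adjusted p = 0.932 in limma). It lay 0.39 above the median of all genes, on the log2 scale.

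EEF1E1, which despite its symbol is a scaffold of the multi-tRNA synthetase complex, measured 309 and 204 FPKM in Con and 103 and 99.7 FPKM in GLUP. Its log2 fold change was -1.30 (SE 0.35, adjusted p = 0.102 in limma) and -0.48 after the GC correction. The ratio of EEF1G to EEF1E1, a pair picked after their values were seen, was 1.25 and 0.851 in Con and 5.85 and 5.32 in GLUP. Over the 5 eEF1 genes tested, 2 were above without overlap (background 17.5%), 1 below (background 49.7%) and 2 overlapped. With median centring 4 were above (background 32.7%) and 1 below (background 29.8%). With the GC correction 4 were above (background 28.3%) and 1 below (background 27.9%). The eEF1 median of 0.47 was 0.89 without Con replicate 1, 0.079 without Con replicate 2 and 0.12 without GLUP replicate 1. It was 0.81 with median centring and 0.68 with the GC correction, beside -0.012 and 0.0020 for all genes.

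EEF2, which moves the ribosome by 1 codon, measured 11.5 and 30.9 FPKM in Con and 16.5 and 11.8 FPKM in GLUP. The groups overlapped, and the log2 fold change of -0.42 (SE 0.51, adjusted p = 0.581 in limma) was 0.26 without Con replicate 2. This level was below that of EEF1A1 by a wide margin in every library, per length. EEF2K, the kinase that inhibits eEF2, was under the filter at 0.134 to 0.418 FPKM.

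Enzymes that methylate elongation factors lay at both ends of the range. EEF1AKMT1 and EEF1AKMT2, which act on lysines of eEF1A, were lower, the latter from 4.36 and 4.94 FPKM in Con to 0.718 and 1.63 FPKM in GLUP. EEF1AKMT4 was higher, from 8.43 and 3.97 FPKM in Con to 12.9 and 14.6 FPKM in GLUP, with a log2 fold change of 1.10 (SE 0.40, adjusted p = 0.134 in limma). That value was 0.62 after the GC correction and 0.64 without Con replicate 2. EEF2KMT overlapped at 1.71 to 3.55 FPKM, and EEF1AKMT3 was under the filter. The readthrough gene EEF1AKMT4-ECE2 that overlaps EEF1AKMT4 was listed at 0 in every library.

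**Figure D3:**
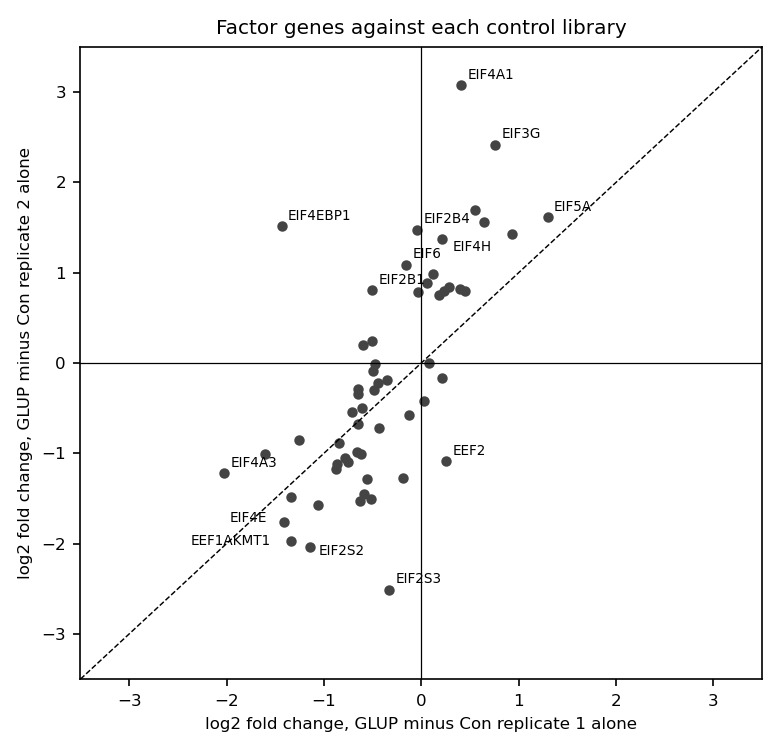
Log2 fold change of the 58 factor genes against Con replicate 1 alone (horizontal) and against Con replicate 2 alone (vertical), with the same 2 GLUP libraries in both and a dashed line of equality. EIF5A, EIF4A3, EIF2S2 and EEF1AKMT1 lie far from 0 on both axes, whereas EIF4EBP1 changes sign, from -1.43 to 1.51, and EIF4A1, EIF3G and EIF2S3 are far from 0 on the vertical axis mainly.

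The choice of Con library had a direct effect on several of these values. The 11 factor genes that differed by over 2-fold between the Con replicates were EEF1G, EEF2, EIF2B1, EIF2B4, EIF2S3, EIF3G, EIF4A1, EIF4EBP1, EIF4EBP2, EIF4H and EIF6, with 8 lower and 3 higher in replicate 2. Without Con replicate 2, 1 factor gene stood over 2-fold higher without overlap (EIF5A, background 2.27%) and 9 lower (background 12.7%). Without Con replicate 1, 10 stood higher (background 13%) and 19 lower (background 23.2%).

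GC content of the transcripts moved with these differences. Over the 58 factor genes, the log2 fold change had a Spearman rho of 0.690 with the GC percentage of the longest annotated transcript, and over the 7570 genes tested that have a GC value it was 0.577. Genes share libraries and are not independent, so both are descriptions. The difference between the Con libraries, replicate 2 minus replicate 1, had a rho of -0.572 with GC content over the same 58 genes. Transcript length and mean level had rho values of -0.130 and 0.118.

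Of 15 factor genes with a GC content of at least 50%, 9 had both GLUP libraries above both Con libraries and 1 had both below, where 38.1% and 19.8% of all genes in that range did, with a median log2 fold change of 0.61 (0.26 for all genes in that range). Of 43 with less, 3 were above and 30 below, where 5.47% and 67.2% of all genes in that range were, with a median of -0.67 (-0.59 for all genes). The 5 eIF3 genes above Con had 47.9% to 60.3% GC, and the 7 below Con had 37.7% to 52.8%. Within eEF1, EEF1E1 had 36.4% GC and EEF1D 60.6%. A correction that subtracts each library's trend with GC content lowered the rho to 0.292. With it, 7 factor genes stood over 2-fold higher without overlap (background 5.6%) and 3 lower (background 5.23%). The 7 were EEF1A1, EEF1G, EIF2D, EIF3G, EIF4A1, EIF4H and EIF5A. Of the 6 that stood higher without the correction, EEF1D and EEF1AKMT4 were not among them. At any size of difference, 20 were then above without overlap (background 28.3%) and 15 below (background 27.9%). The 3 lower genes were EEF1AKMT1, EIF2S2 and EIF4A3, with log2 fold changes of -1.22, -1.07 and -1.19. The part of GC content in the differences between groups was not tested beyond this.

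**Figure D4:**
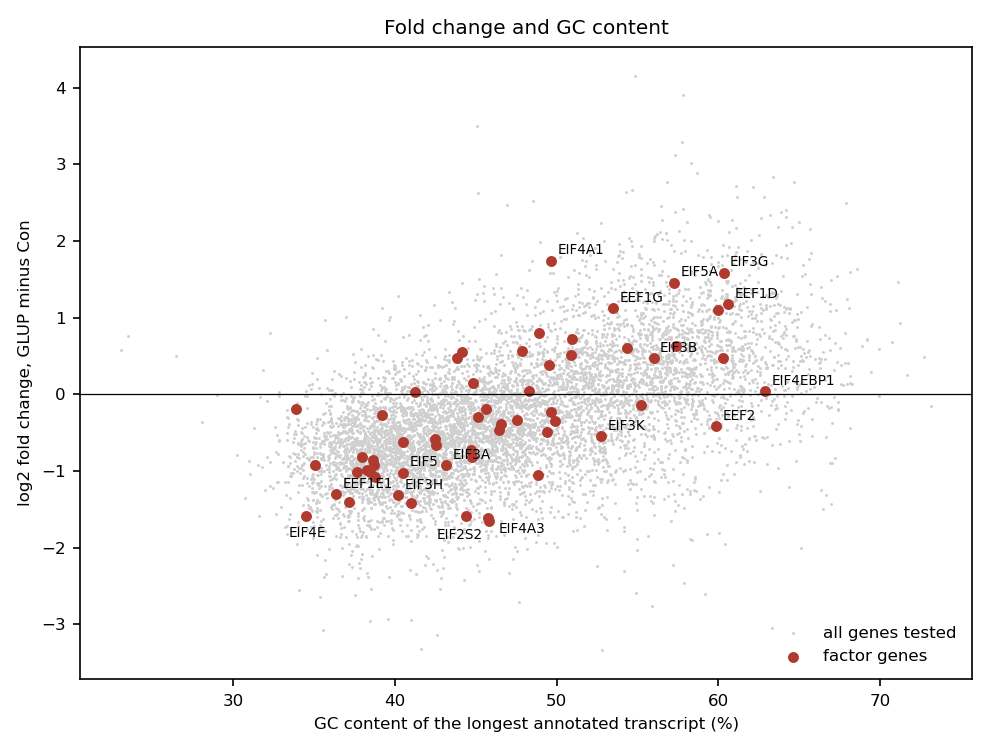
Log2 fold change, GLUP minus Con, against the GC content (%) of the longest annotated transcript for the genes tested (grey) and the 58 factor genes (red, 16 of them named). Both sets slope upward, with EIF4E and EEF1E1 at low GC content below 0 and EIF3G, EEF1D and EIF5A at high GC content above 0, while EIF4A3 and EIF4A1 lie away from the main band.

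Many mRNAs of elongation factors and ribosomal proteins begin with a cytidine and a run of pyrimidines, the terminal oligopyrimidine (TOP) motif through which mTORC1 controls their translation. The RefSeq windows below show 15 bases before and 15 from the start site of GRCh38.p14, with the unbroken run of C and T from the first transcribed base in capitals, and are printed to show the start of 6 genes with such a run and of EEF1G, known for TOP mRNA, without one. EIF4B and EIF2S3 had both GLUP libraries below both Con libraries, and the groups overlapped for EEF1A1, EEF1B2, EEF2 and EIF3F.
EEF1A1 (chr6:73521018-73521047, minus strand): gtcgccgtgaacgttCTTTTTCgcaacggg
EEF1B2 (chr2:206159880-206159909, plus strand): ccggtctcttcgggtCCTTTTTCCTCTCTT
EEF2 (chr19:3985449-3985478, minus strand): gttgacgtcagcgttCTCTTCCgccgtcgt
EIF3F (chr11:7987322-7987351, plus strand): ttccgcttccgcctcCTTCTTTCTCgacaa
EIF4B (chr12:53006441-53006470, plus strand): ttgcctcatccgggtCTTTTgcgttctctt
EIF2S3 (chrX:24054941-24054970, plus strand): ggggtgatttccttcCTCTTTTggcaacat
EEF1G (chr11:62573877-62573906, minus strand): tctcccgggcggcttactttgcggcagcgc

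The runs were 7 bases long in EEF1A1, EEF2 and EIF2S3, 10 in EIF3F, 5 in EIF4B and 16, past the window's end, in EEF1B2, while the listed start of EEF1G is not a pyrimidine. EEF1B2 has 2 start sites in the table and 1 is shown. A start at C followed by C or T to a run of at least 5 bases was present in 13 of the 55 factor genes with a start in the table (23.6%), against 5.14% of 27305 genes. Only the transcribed strand was searched, and 14 factor genes have no entry. Of the 13, 12 were tested, with a median log2 fold change of -0.48 and a range from -1.42 (EIF2S3) to 0.55 (EIF2D). Of these 12, 1 had both GLUP libraries above both Con libraries (background 17.5%) and 6 had both below (background 49.7%). The 34 tested genes with another start had a median of -0.34.

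A list of 9 factor genes known for TOP mRNAs had a median of 0.025, beside -0.36 for all genes, from -1.32 for EIF3H to 1.18 for EEF1D. Of these, 2 were above without overlap, 3 below and 4 overlapped, where 17.5% of all genes tested were above and 49.7% below. The 82 cytosolic ribosomal protein genes, most of which have TOP mRNAs, had a median of 0.11 over 81 tested. Of those tested, 31 were above without overlap (background 17.5%) and 11 below (background 49.7%). A set of 18 cytosolic aminoacyl-tRNA synthetase genes, which supply the elongation factors, had a median of -0.03. In it 2 were above (background 17.5%) and 8 below (background 49.7%). The set held EPRS1 and genes with a symbol ending in ARS1, and so not FARSA and FARSB. In the settings used, the translation factor median of -0.37 was thus the lowest of these 3 sets, and no test of the difference was run. For the other 2 sets no median with the GC correction, with median centring or without a Con library is given here.

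Other genes of the pathway were described by 6 lists, in which 39 genes were tested and none passed an adjusted p of 0.05 in limma. Over 2-fold without overlap, 2 stood higher and 8 lower, where 6.47% and 15.9% of all genes did. In termination and ribosome recycling, 6 of 7 genes tested had both GLUP libraries below both Con libraries (background 49.7%), with a median log2 fold change of -0.63. After the GC correction, ETF1, GSPT1 and HBS1L had -0.83, -1.24 and -0.019, and ABCE1, DENR, MCTS1 and PELO 0.22, 0.13, 0.18 and 0.25. GSPT1, which encodes the release factor eRF3a, measured 10.4 and 6.88 FPKM in Con and 1.37 and 1.65 FPKM in GLUP. Its log2 fold change of -1.92 (SE 0.31, adjusted p = 0.10 in limma) was below that of every factor gene tested in the settings used. Without Con replicate 1 it was -1.65, above the -2.51 of EIF2S3. After the GC correction it was -1.24, near the -1.22 of EEF1AKMT1. PELO, which rescues stalled ribosomes, was at the other end with -0.21.

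The poly(A)-binding genes, which close mRNA into a loop through eIF4G, had a median of -0.99 over 4 tested, from -1.32 for PAIP2, an inhibitor of the poly(A)-binding protein, to 0.22 for PABPC4. After the GC correction PABPC1, PABPC4, PAIP1 and PAIP2 had -0.10, 0.63, -0.53 and -0.57. Of the genes that carry mTORC1 signals to the cap, 9 were tested with a median of -0.25, from -1.92 for MKNK1, a kinase that phosphorylates eIF4E, to 1.97 for MLST8, a subunit of mTORC1 itself. MLST8 measured 6.37 and 1.05 FPKM in Con and 20.9 and 9.61 FPKM in GLUP. Without Con replicate 2 the log2 fold changes were -1.15 for MKNK1 and 1.05 for MLST8. The 7 tested genes that control eIF2 had a median of -0.37, from -1.23 for DNAJC3 (an inhibitor of eIF2 kinases) to 1.55 for PPP1CA (a phosphatase subunit), and 4 of them, PPP1CA included, overlapped between groups. Without Con replicate 2 the values were -0.43 for DNAJC3 and 0.21 for PPP1CA.

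The enzymes that make hypusine on eIF5A and diphthamide on eEF2 had a median of -0.45 over 6 tested, from -1.25 for DPH5 to 0.31 for DPH2. The translation factors of mitochondria had a median of -0.38 over 6 tested, from -1.40 for the initiation factor MTIF3 to 1.30 for TUFM, the mitochondrial counterpart of eEF1A. Leaving out Con replicate 2 gave -1.31 for MTIF3 and 0.73 for TUFM. As in the cytosolic set, genes of 1 process lay on both sides.

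Of the 69 factor genes, 11 did not reach a mean of 1 FPKM and were not tested. They were EEF1A2, EEF1AKMT3, EEF2K, EIF1AY, EIF2AK3, EIF2S3B, EIF4E1B, EIF4E3, EIF4EBP3, EIF4ENIF1 and EIF5AL1. EIF4E1B, a cap-binding protein of oocytes, was listed at 0 in all 4 libraries. The span of another annotated gene, introns included, overlaps that of 52 of the 69 on either strand. Without a stated strand setting, reads from a stretch that genes on opposite strands share cannot be told apart.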

How the data were processed

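Total RNA of 4 HGC-27 libraries (2 Con, 2 GLUP) was sequenced on an Illumina platform. The authors deposited 1 table of FPKM, normalised by them per transcript length and library. The submitters' processing notes name HISAT2, Cufflinks, RSEM and GRCh38.p10, without versions, whereas the row identifiers have the form of annotation lifted to GRCh37, so no coordinates are taken from the table; those of start sites are RefSeq's, on GRCh38.p14. Depth is unknown, no counts were given and no interval for counting error was computed. Sums of FPKM lay between 909735 and 949919. Of 62492 rows, 49 second pseudoautosomal copies were dropped, and 99.55% of identifiers matched the annotation.

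From these values, log2(FPKM + 1) of the 7588 genes averaging 1 FPKM or more was fitted with limma 3.58.1 (R 4.3.3) with a variance trend, and p-values were adjusted by Benjamini-Hochberg over all of them. The GC correction subtracts from each library a lowess curve (span 0.3) of its deviation from the gene mean on GC content. By rule, full statistics went to 29 genes, namely 1 core factor per step, the highest and lowest of each complex and the 5 most abundant. EIF2S3, EEF1B2, EEF1G, GPS2, SENP3-EIF4A1, ATF4 and DHPS were added after their values were seen, the first 3 with full statistics. The members and lists were chosen with earlier results of these data known. Alternatives were a pseudocount of 0.1, no filter, a minimum mean of 5 FPKM, protein-coding genes only, no trend, median centring, quantile normalization, GC correction, the replicate block with and without GC correction, and leaving out each library in turn. EIF1AY is counted and its level is not reported here.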

Additional observations from a re-analysis of the deposited data

How the results depend on the processing

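Of all 58 factor genes tested, 17 changed sign in at least 1 of the 14 alternatives, EEF1B2 among them (-0.0025 without GLUP replicate 1), and 6 of these were among the 29 genes that the rule for full statistics named. Without Con replicate 1 and without Con replicate 2, in that order, the log2 fold change was -1.09 and 0.26 for EEF2, 1.48 and -0.043 for EIF2B4, 1.51 and -1.43 for EIF4EBP1, -0.42 and 0.031 for EIF5A2, and 1.09 and -0.16 for EIF6. Without GLUP replicate 1 it was -0.021 for EIF4EBP1. With the GC correction, with or without the replicate block, it was 0.47 for EIF2AK2, -0.51 for EIF4EBP1, 0.69 for EIF5A2 and -0.021 for EIF6. Median centring gave 0.073 for EIF2AK2 and 0.15 for EIF5A2, and quantile normalization 0.0070 and 0.044. Genes over 2-fold lower without overlap, 13 in the settings used, were 5 with median centring, 6 with quantile normalization and 3 with the GC correction, also with the replicate block. Centring removes the shift of all genes by construction. The relative median of the factor genes, -0.012, was -0.21 with no filter, which adds genes of low FPKM. Leaving out each library in turn gave 0 to 42 factor genes with an adjusted p under 0.05 in limma, 1 to 10 genes higher, 9 to 19 lower, and relative medians from -0.15 to 0.021.

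The titles number the replicates in both groups, but nothing says that a number marks a shared culture. Deviations of same-numbered libraries had a correlation of 0.126 over only 2 pairs, so the numbers were not taken as pairs. The replicate block cannot change a log2 fold change or a library order here. The 6 genes higher and 13 lower are thus kept by construction. With the block, 0 factor genes had an adjusted p under 0.05 in limma, with 22 in place of 23 at an unadjusted p under 0.05. With no counts, depth limits cannot be stated, and the 2 Con libraries that differ limit every value here.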
